A study of Mus musculus with 10 samples.

Results

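Genes that encode the machinery of megakaryocytes and platelets were followed in mouse stem and progenitor cells carrying the leukaemia fusion protein AML1/ETO, the same protein with the W692A substitution, or the vector alone. The list held 34 genes in 7 role groups. Of these, 31 had a probe set with a single gene symbol on the array, among 18193 genes measured in all, and each gene was represented by its probe set with the highest mean over the 10 arrays. Serpine2, Bin2 and Ptgs1 were not analysed here.

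Megakaryocytes are the marrow cells that shed platelets, and their precursors branch from the stem and progenitor pool. Platelets bind damaged vessel walls through the integrin of Itga2b and Itgb3 and through the glycoprotein complex of Gp1ba, Gp1bb, Gp5 and Gp9, respond to thrombin, collagen, ADP and ATP through surface receptors, and release stored granules. The programme depends on transcription factors such as Gata1, Fli1, Runx1, Gfi1b and Nfe2. RUNX1 is the blood transcription factor that AML1/ETO is made from: the fusion joins its DNA-binding part to ETO, whose MYND domain binds the corepressors SMRT and N-CoR, and W692A lies in that domain. The comparison of W692A with AML1/ETO thus addresses what the substitution changes, and that of each protein with GFP what the protein changes. How much of each fusion protein the cells made was not tested here, so a difference in amount cannot be told apart from the substitution.

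There were 4 arrays of cells with W692A (AML1/ETO carrying the substitution), 3 with AML1/ETO and 3 with GFP, the empty MigR1 vector. In all groups the cells were bone marrow cells of C57BL/6 mice aged 5 to 6 weeks, cultured with IL-3, IL-6 and SCF, exposed to retrovirus in 2 rounds, and sorted 48 hours after the second as live, lineage-negative, Sca1-positive, cKit-positive cells with the virus's GFP marker. Each sample was an independent transduction of 25000 sorted cells, and 50 ng of its RNA was amplified in 2 rounds before hybridisation. The labels do not say whether the transductions came from different mice. Expression was forced from a retrovirus in mixed transduced cells rather than from the native gene, and the lineage cocktail was meant to remove mature blood cells.

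Values are log2 intensities, so that a difference of 1 is a 2-fold change. A background bound of 2.04 was taken from the brightest bacterial control probe set, and 19 of the 31 genes lay above it on all 10 arrays, 6 on some and 6 on none. The bound rests on that single control, since the highest value of every other bacterial control was 0.844 or less. Genes described as at background may therefore still lie above the other controls. Among the progenitor markers, Cd34, Flt3 and Procr were above the bound on every array and Kit was below it on every array, although cKit protein was part of the gate. Pearson correlations were 0.984 to 0.992 between arrays within a group and 0.892 to 0.965 between groups, over the 8820 genes whose mean exceeded the bound in at least 1 group, called brighter genes below. Control signals also differed between groups. The Gapdh control's 3′ minus 5′ log2 difference was 3.81 to 4.17 with W692A, 4.01 to 5.04 with AML1/ETO and 4.83 to 4.99 with GFP, and the 18S ribosomal control averaged 8.76 ± 0.181 with W692A, 8.40 ± 0.236 with AML1/ETO and 7.95 ± 0.196 with GFP (SD). The part of these control differences in the results was not tested beyond the fits that use the Gapdh difference as a covariate.

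With AML1/ETO against GFP, 15 of the 31 genes fell and 7 rose, and 9 did not pass the test (limma, adjusted p under 0.05 over all genes). That is 71.0% of the list, beside 28.6% of all genes, of which 12.9% rose and 15.8% fell. Among the 8820 brighter genes 52.4% were called (22.6% rose and 29.8% fell). The list had 22 brighter genes, of which 7 rose and 13 fell. The genes that fell were Itga2b, Itgb3, Gp1bb, Gp9, Selp, Vwf, Mmrn1, P2ry12, Plek, Rgs18, Lat, Tbxas1, Nfe2, Rab27b and Mylk, and those that rose were Treml1, F13a1, P2rx1, F2r, Gng11, Fermt3 and Alox12. The median log2 difference of the list was -0.35, beside -0.02 over all genes. Arrays of AML1/ETO and GFP did not overlap in any of the 22 called genes. Among all genes, 5073 of the 5207 called were without overlap (27.9% of all genes). In whole sorted populations such as these, fewer cells of a type and less RNA per cell cannot be told apart. Of 7 measured stem and multipotent progenitor markers, 6 rose and 1 fell with AML1/ETO, and 5 rose and 1 fell with W692A. Their summed log2 signal was 8.42 to 8.76 with W692A, 9.47 to 9.64 with AML1/ETO and 6.88 to 7.14 with GFP. Of 8 neutrophil markers 1 rose and 5 fell with each protein, with a summed log2 signal of 8.31 to 9.09 with W692A, 8.52 to 9.25 with AML1/ETO and 9.37 to 9.84 with GFP. Their defining markers Camp and Ngp were above the bound on some array of every group, Ltf only with GFP, and Mmp8 only with the 2 proteins; the part of these shifts in the results was not tested. The Tbxas1 call did not pass without AML1/ETO replicate 1 or 2 or GFP replicate 1 (adjusted p 0.102 to 0.131), and the Mylk call did not pass without AML1/ETO replicate 3 or GFP replicate 1 (adjusted p 0.0527 to 0.0665), whereas Tubb1 passed without GFP replicate 1 (adjusted p 0.0245, limma throughout).

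With W692A against GFP, 14 genes fell, 5 rose and 12 did not pass, or 61.3% called, beside 14.5% of all genes (9.07% fell and 5.45% rose). Of the 22 brighter genes of the list 11 fell and 5 rose, beside 27.4% called among all brighter genes (17.1% fell and 10.3% rose). Itga2b, Itgb3, Gp1bb, Gp9, Selp, Vwf, Mmrn1, P2ry12, Rgs18, Lat, Tbxas1, Nfe2, Tubb1 and Rab27b fell, and Treml1, F13a1, P2rx1, Gng11 and Alox12 rose. The median log2 difference was -0.22, beside 0.01 over all genes. The arrays of W692A and GFP did not overlap in any of the 19 called genes. Among all genes, 2500 of the 2642 called were without overlap (13.7% of all genes). Both comparisons with GFP share the same 3 GFP arrays. The Gapdh 3′ minus 5′ difference of the W692A arrays does not overlap that of the GFP arrays, and with it as a covariate 6 of the 31 genes passed, against 506 of all genes. That covariate ended the W692A calls of 13 genes. The log2 difference with the covariate was -1.17 for Gp1bb (-1.44 without it, limma adjusted p with it 0.0727), -1.06 for Gp9 (-0.93, 0.127), -1.28 for Vwf (-1.37, 0.0865), -1.10 for Mmrn1 (-0.96, 0.186), -0.79 for P2ry12 (-0.89, 0.257) and 1.02 for Gng11 (1.00, 0.0559). Smaller differences remained for Itgb3 (-0.81, against -1.34 without it, limma adjusted p 0.427), F13a1 (0.57, against 1.12, 0.625), Rgs18 (-0.55, against -0.84, 0.268) and Rab27b (-0.66, against -1.92, 0.466). Those of Lat (-0.58, against -0.90, 0.331), Tbxas1 (-0.34, against -0.51, 0.719) and Tubb1 (-0.27, against -0.55, 0.749) were also smaller. Leaving out 1 array ended the call of Tbxas1 (without GFP replicate 1, 2 or 3, AML1/ETO replicate 2 or W692A replicate 1 or 4, adjusted p 0.0523 to 0.199), of Alox12 (without GFP replicate 1, 2 or 3 or W692A replicate 3 or 4, 0.0747 to 0.0870) and of Tubb1 (without GFP replicate 2 or 3, 0.0754 to 0.0772). It brought in Plek (without GFP replicate 3 or W692A replicate 1, 0.0346 to 0.0353), F2r (without GFP replicate 2, 0.0490) and Clec1b (without AML1/ETO replicate 3, 0.0328).

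With W692A against AML1/ETO, 6 genes rose, 3 fell and 22 did not pass, or 29.0% called, beside 20.7% of all genes (9.61% higher and 11.1% lower). Of the 22 brighter genes of the list 5 were higher and 3 lower, beside 39.0% called among all brighter genes (18.9% higher and 20.2% lower). Itgb3, Selp, Nfe2, Plek, Vwf and Clec1b were higher with W692A, and P2rx1, Alox12 and Fermt3 were lower. The median log2 difference was 0.03 for the list and 0.03 for all genes. In 7 of the 9 called genes the arrays did not overlap. Among all genes, 3510 of the 3765 called were without overlap (19.3% of all genes). For Itgb3, Selp, Nfe2 and P2rx1 the call held under every left-out array. The count was 5 without AML1/ETO replicate 2, when Clec1b, Vwf, Plek and Fermt3 did not pass (adjusted p of Plek 0.0501). Clec1b also did not pass without AML1/ETO replicate 1 or W692A replicate 1 or 3 (adjusted p 0.0811 to 0.172 over all 4 omissions), Vwf without AML1/ETO replicate 1 (0.0551 to 0.0711 over both), Fermt3 without AML1/ETO replicate 3 or W692A replicate 1 or 2 (0.0533 to 0.0917 over all 4) and Alox12 without AML1/ETO replicate 3 or W692A replicate 2 (0.0551 to 0.114). Mylk passed without GFP replicate 1, AML1/ETO replicate 1 or W692A replicate 4 (0.0240 to 0.0421), and Gp5 passed without AML1/ETO replicate 3 (0.0155).

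**Figure D1:**
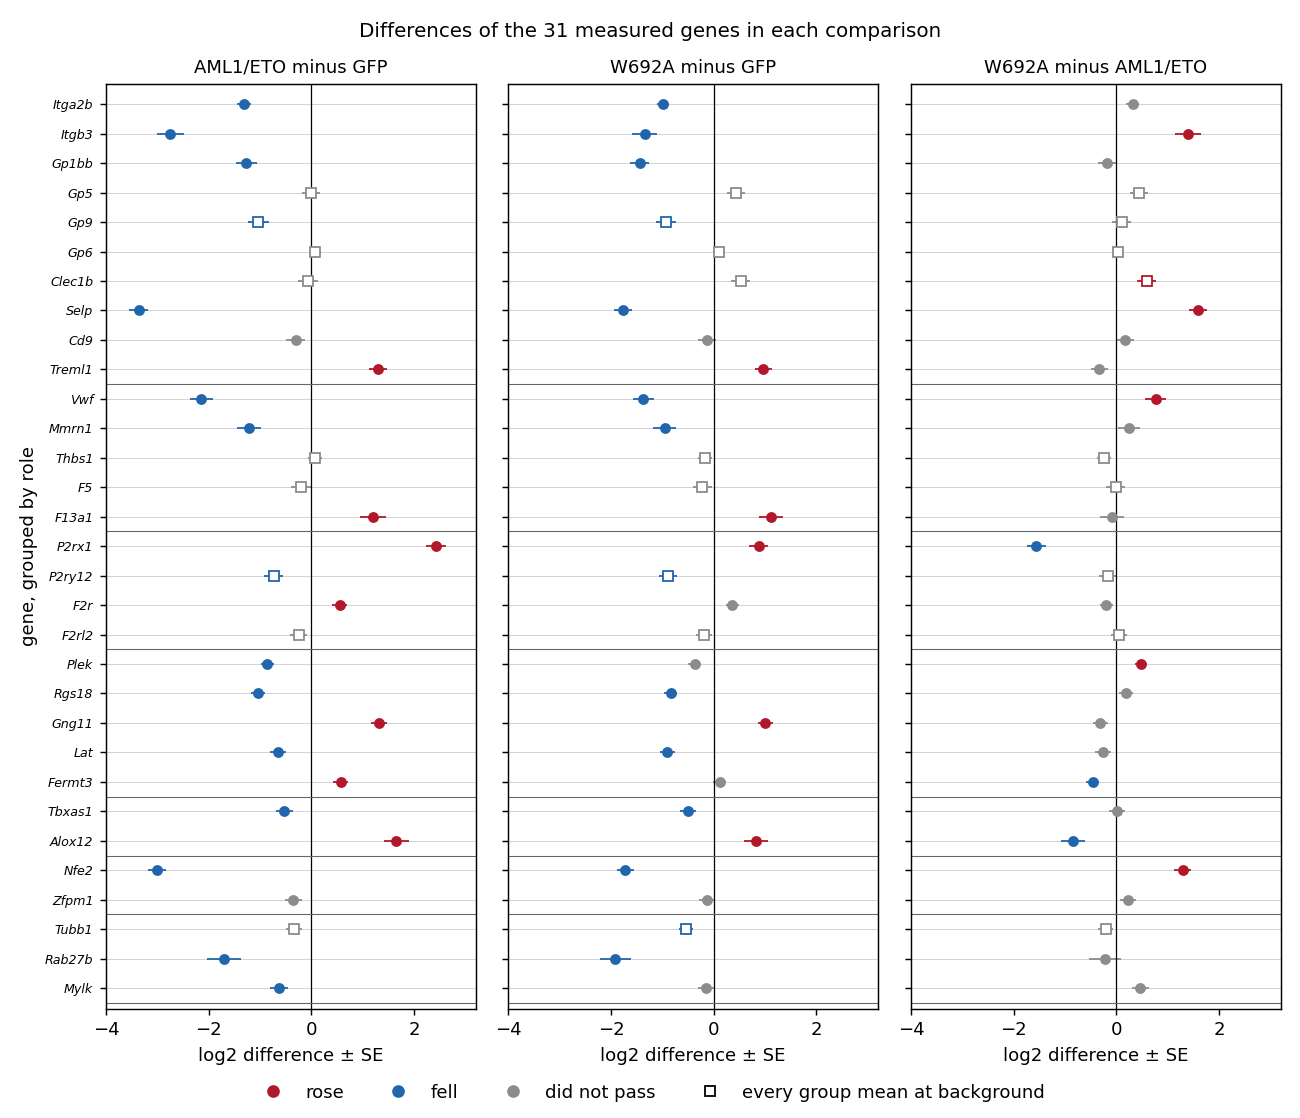
Log2 difference with its standard error for each of the 31 measured genes, in role groups parted by lines, for AML1/ETO minus GFP (left), W692A minus GFP (middle) and W692A minus AML1/ETO (right). Red genes rose, blue genes fell and grey genes did not pass, and open squares mark genes with every group mean at background; Selp, Nfe2 and Itgb3 lie farthest to the left in the left panel, and P2rx1 farthest to the right.

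The adhesion receptors and other surface proteins were 10 genes, of which 5 fell and 1 rose with AML1/ETO, 5 fell and 1 rose with W692A, and 3 were higher with W692A than with AML1/ETO. Selp encodes P-selectin, the granule membrane protein that activated platelets display to bind leukocytes. Its log2 intensity was 4.41, 4.26, 4.25 and 4.28 with W692A, 2.44, 3.26 and 2.41 with AML1/ETO, and 6.07, 6.16 and 5.98 with GFP. The groups were fully separate, with W692A between AML1/ETO and GFP on every array. The fall against GFP was 10.3-fold for AML1/ETO, a log2 difference of -3.36 ± 0.183 (SE, limma adjusted p 3.42e-09), and 3.40-fold for W692A (-1.77 ± 0.171, 5.47e-06). Between the proteins it was 3.03-fold higher with W692A than with AML1/ETO (1.60 ± 0.171, limma adjusted p 1e-05). The fall with AML1/ETO ranked 12 by size among all genes that were lower. Another Selp probe set, above the bound on some arrays, lay at 4.04 to 4.69 with W692A, 1.48 to 1.98 with AML1/ETO and 3.83 to 5.46 with GFP, so there W692A and GFP overlapped (log2 difference -0.31, limma adjusted p 0.621), while its AML1/ETO arrays stayed the lowest.

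Itgb3 encodes the beta subunit of the platelet fibrinogen receptor. Its log2 intensity was 6.28, 5.99, 6.47 and 5.90 with W692A, 4.74, 4.16 and 5.39 with AML1/ETO, and 7.97, 7.21 and 7.34 with GFP. No group overlapped another, and AML1/ETO replicate 3 was the highest of its group. Itgb3 was 6.70-fold lower with AML1/ETO than with GFP (log2 difference -2.74 ± 0.264 SE, limma adjusted p 1.32e-06), 2.54-fold lower with W692A than with GFP (-1.34 ± 0.247, 0.00176), and 2.64-fold higher with W692A than with AML1/ETO (1.40 ± 0.247, 0.000762). Itga2b encodes its partner, the alpha subunit that is also the early megakaryocyte antigen CD41. It read 3.10, 3.05, 3.30 and 3.15 with W692A, 2.80, 2.78 and 2.90 with AML1/ETO, and 4.41, 4.07 and 3.93 with GFP. All arrays of both proteins lay below all GFP arrays, and the W692A arrays lay just above those of AML1/ETO. The fall was 2.48-fold with AML1/ETO (-1.31 ± 0.134, limma adjusted p 2.41e-06) and 1.98-fold with W692A (-0.99 ± 0.125, 7.43e-05), and the difference of 0.32 ± 0.125 between the proteins did not pass (0.0882), though it did after quantile normalization (0.0282) or subtraction of each array's median (0.0323).

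Gp1bb, the beta chain of the von Willebrand factor receptor, read 2.27, 2.44, 2.82 and 2.36 with W692A, 2.17, 2.79 and 2.98 with AML1/ETO, and 3.93, 4.16 and 3.66 with GFP. The GFP arrays stood above all others, and the arrays of the proteins overlapped each other. Gp1bb was 2.41-fold lower with AML1/ETO (-1.27 ± 0.201 SE, limma adjusted p 0.000165) and 2.72-fold lower with W692A (-1.44 ± 0.188, 9.35e-05) than with GFP, and the difference between the proteins did not pass (-0.18 ± 0.188, 0.618). Its other probe set above the bound did not pass against GFP for either protein. The companion chain Gp9 fell in both comparisons with GFP (log2 differences -1.03 and -0.93, limma adjusted p 0.00097 and 0.00349), but every group mean was at background and both calls ended when values below the bound were set to it. Gp5, the fourth chain of that receptor, did not pass in any comparison. It ranged over 1.54 to 2.21 with W692A, 1.10 to 1.75 with AML1/ETO and 1.32 to 1.42 with GFP. The collagen receptor Gp6 stayed below 1.04 on every array, and Clec1b, the podoplanin receptor, stayed at background with 1.39 to 1.93 with W692A, 0.77 to 1.51 with AML1/ETO and 0.93 to 1.28 with GFP.

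Treml1, a receptor-like protein of the platelet alpha granule, was the gene of this role that went the other way. It ranged over 2.97 to 3.48 with W692A, 3.31 to 3.76 with AML1/ETO and 2.08 to 2.52 with GFP, and it was 2.46-fold higher with AML1/ETO (adjusted p by limma 3.72e-05) and 1.95-fold higher with W692A (0.000925) than with GFP, with no overlap in either. Cd9, a tetraspanin of platelets and many other cells, did not pass in any comparison and ranged over 2.75 to 3.55 with W692A, 2.70 to 3.07 with AML1/ETO and 3.12 to 3.46 with GFP.

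Promoter sequence, the 250 bases before the annotated start from RefSeq (GRCm38.p6), is shown for Itga2b and Gp9. Both were called lower against GFP, and their windows hold letters of the RUNX or ETS families. The windows of Mmrn1, P2ry12 and Mylk, also called lower with AML1/ETO, hold such letters too and are not shown. The Itga2b window is chr11:102469884-102470133 on the minus strand and that of Gp9 is chr6:87777820-87778069 on the plus strand, each written 5′ to 3′ along its gene. Capitals mark exact matches on either strand. In Itga2b they are a match to GGAAGT, the ETS letters, 26 bases before the start. In Gp9 they are GGAAGT 240 bases before the start and a match to TGTGGT, the RUNX letters, 171 bases before it.
Itga2b: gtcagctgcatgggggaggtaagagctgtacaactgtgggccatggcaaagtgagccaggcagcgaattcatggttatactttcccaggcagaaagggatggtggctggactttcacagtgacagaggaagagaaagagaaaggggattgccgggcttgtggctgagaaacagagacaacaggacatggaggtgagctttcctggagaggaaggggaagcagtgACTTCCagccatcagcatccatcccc
Gp9: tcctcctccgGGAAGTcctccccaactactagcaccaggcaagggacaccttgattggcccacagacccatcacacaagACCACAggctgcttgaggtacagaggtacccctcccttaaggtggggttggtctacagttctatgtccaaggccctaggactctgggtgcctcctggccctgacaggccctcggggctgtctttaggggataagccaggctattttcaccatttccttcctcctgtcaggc

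Of 5 measured genes for secreted and coagulation proteins, 2 fell and 1 rose with each protein against GFP, and 1 was higher with W692A than with AML1/ETO. Vwf encodes von Willebrand factor, the multimeric ligand of the Gp1bb complex. Its log2 intensity was 1.83, 1.20, 1.76 and 1.56 with W692A, 0.61, 0.76 and 1.08 with AML1/ETO, and 3.46, 2.94 and 2.48 with GFP. Only the GFP arrays were above the bound, so Vwf was at least 1.89-fold lower with AML1/ETO (limma adjusted p 2.66e-06) and at least 1.89-fold lower with W692A (0.000356). W692A was higher than AML1/ETO by 0.77 ± 0.206 (limma adjusted p 0.0144) without overlap, but all 7 of those arrays were at background. Mmrn1, the factor V carrier multimerin, read 2.97, 2.77, 2.86 and 2.93 with W692A, 2.74, 2.64 and 2.51 with AML1/ETO, and 3.70, 4.58 and 3.25 with GFP. GFP replicate 2 was well above its group, yet all GFP arrays exceeded all others. Mmrn1 was 2.32-fold lower with AML1/ETO (-1.21 ± 0.233 SE, limma adjusted p 0.000884) and 1.94-fold lower with W692A (-0.96 ± 0.218, 0.0077) than with GFP, and did not pass between the proteins (0.25 ± 0.218, 0.517). With the bound as a floor for all genes, its own values and its W692A difference of -0.96 stayed as they were, since no array was below the bound, but the adjusted p over all genes was 0.0913 (limma).

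F13a1 encodes the catalytic subunit of the clot-stabilising factor XIII, also made by monocytes and macrophages. It read 3.58, 3.76, 3.46 and 4.18 with W692A, 4.35, 3.92 and 3.23 with AML1/ETO, and 2.62, 3.00 and 2.27 with GFP. Every array of either protein was above every GFP array, and the proteins overlapped. The rise of F13a1 was 2.30-fold with AML1/ETO (1.20 ± 0.255 SE, limma adjusted p 0.00197) and 2.17-fold with W692A (1.12 ± 0.239, 0.00517) against GFP, and the proteins did not differ past the threshold (-0.08 ± 0.239, 0.88). With the Gapdh covariate the AML1/ETO call did not pass either (0.053) at a log2 difference of 0.87. With the bound as a floor the W692A difference of 1.12 stayed as it was, since no F13a1 value was below the bound, at a limma adjusted p of 0.0802. The summed signal of 10 monocyte and macrophage markers was also higher with both proteins, at 9.47 to 9.62 with W692A, 9.73 to 10.10 with AML1/ETO and 8.37 to 8.70 with GFP on the log2 scale. Unlike F13a1, this sum did not overlap between the proteins. Of the 10 markers, 4 rose, 1 fell and 5 did not pass with AML1/ETO against GFP, and 4 rose and 6 did not pass with W692A against GFP. Of the defining markers Csf1r and Adgre1 were above the bound on every array and Ccr2 on none, while Cx3cr1 was above it only on 1 GFP array, averaging 1.57 with W692A, 1.32 with AML1/ETO and 1.82 with GFP; the part of these cells in the F13a1 result was not tested. Thbs1 (thrombospondin) and F5 (coagulation factor V) were at background on all arrays and did not pass.

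Selp, Vwf and Mmrn1 are also made by endothelial cells. The endothelial markers Cdh5, Tie1, Emcn and Cldn5 were at or below the bound on every array of all 3 groups. Of the 10 listed endothelial markers, some of which stem cells share, 3 had a mean above the bound with each protein and 2 with GFP. The summed log2 signal of the 10 was 6.92 to 7.23 with W692A, 7.93 to 8.11 with AML1/ETO and 5.60 to 5.61 with GFP. The part of endothelial cells in the results for Selp, Vwf and Mmrn1 was not tested.

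**Figure D2:**
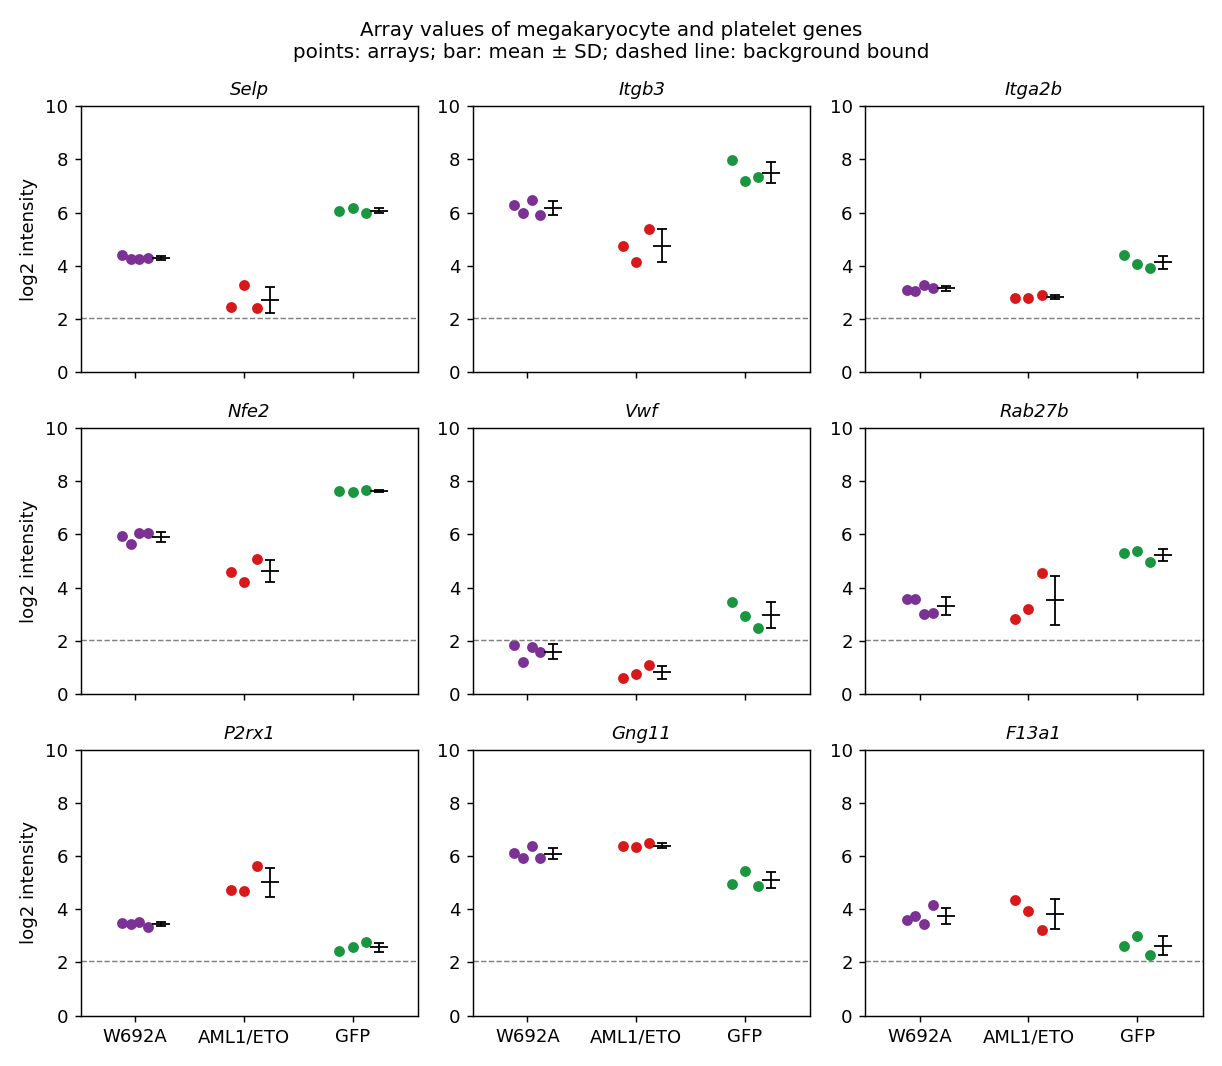
Log2 intensity of 9 genes on every array, with W692A (4 arrays), AML1/ETO (3) and GFP (3) from left to right, the group mean ± SD beside the points and the background bound of 2.04 as a dashed line. Selp, Itgb3 and Nfe2 show W692A between AML1/ETO and GFP without overlap, P2rx1 shows the same order upside down, and in Rab27b AML1/ETO replicate 3 stands above the rest of its group at 4.56.

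Of 4 receptors for soluble agonists, 2 rose and 1 fell with AML1/ETO, 1 rose and 1 fell with W692A against GFP, and 1 was lower with W692A than with AML1/ETO. P2rx1 encodes the ATP-gated cation channel of platelets. Its log2 intensity was 3.47, 3.46, 3.54 and 3.35 with W692A, 4.71, 4.69 and 5.62 with AML1/ETO, and 2.42, 2.57 and 2.75 with GFP. The groups were fully separate, and AML1/ETO replicate 3 was the highest array. P2rx1 was 5.38-fold higher with AML1/ETO than with GFP (2.43 ± 0.199 SE, limma adjusted p 2.9e-07), 1.83-fold higher with W692A than with GFP (0.87 ± 0.186, 0.00507), and 2.94-fold lower with W692A than with AML1/ETO (-1.55 ± 0.186, 2.83e-05). A dimmer P2rx1 probe set lay at 1.55 to 1.84 with W692A, 2.49 to 3.53 with AML1/ETO and 1.29 to 1.93 with GFP, so there W692A did not differ past the threshold from GFP (0.07, limma adjusted p 0.908), and with the mean of the gene's probe sets the W692A call did not pass (0.105). With the bound as a floor its W692A difference of 0.87 stayed as it was, since no array was below the bound in the probe set used, at a limma adjusted p of 0.0635. The window before its start, chr11:72998895-72999144 on the plus strand of GRCm38.p6 from RefSeq, is shown as the strongest riser of the list. Capitals mark its only match, to the GATA letters AGATAA, 242 bases before the start.
P2rx1: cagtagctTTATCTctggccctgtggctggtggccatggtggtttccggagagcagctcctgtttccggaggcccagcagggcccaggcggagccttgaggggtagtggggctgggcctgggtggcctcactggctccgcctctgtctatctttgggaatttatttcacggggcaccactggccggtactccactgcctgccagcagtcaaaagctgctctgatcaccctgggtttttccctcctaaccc

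P2rx1 is not confined to platelets, and mast cells also carry it. The summed log2 signal of 7 measured mast cell and basophil markers was 9.55 to 9.76 with W692A, 10.66 to 11.63 with AML1/ETO and 7.83 to 8.42 with GFP, the same order as P2rx1. Ms4a2 and Mcpt8 were above the bound on every array and Cma1 was at background on every array, and the part of such cells in the P2rx1 result was not tested. F2r, the thrombin receptor of human platelets, was 1.46-fold higher with AML1/ETO than with GFP (limma adjusted p 0.00716), with 9.70 to 9.88 with W692A, 9.82 to 10.18 with AML1/ETO and 9.16 to 9.63 with GFP. P2ry12, the ADP receptor that clopidogrel blocks, fell with both proteins (limma adjusted p 0.0073 with AML1/ETO and 0.00286 with W692A), but all its values were below the bound. With the Gapdh covariate neither call passed (0.0665 for AML1/ETO and 0.257 for W692A), at log2 differences of -0.67 and -0.79, against -0.73 and -0.89 without it. F2rl2, a thrombin receptor that mouse platelets use as a cofactor, did not pass in any comparison and had every group mean at background.

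All 5 measured intracellular signalling genes were called with AML1/ETO, 3 lower and 2 higher. With W692A against GFP, 2 fell and 1 rose, and between the proteins 1 was higher and 1 lower with W692A. Rgs18, which limits signalling from G protein-coupled receptors in platelets, read 6.67, 6.33, 6.23 and 6.54 with W692A, 6.10, 6.16 and 6.47 with AML1/ETO, and 7.35, 7.35 and 7.15 with GFP. The GFP arrays were the highest, and the proteins overlapped. Rgs18 was 2.06-fold lower with AML1/ETO (-1.04 ± 0.144 SE, limma adjusted p 4.7e-05) and 1.79-fold lower with W692A (-0.84 ± 0.134, 0.000586) than with GFP, and the proteins did not differ past the threshold (0.20 ± 0.134, 0.384). Gng11, a G protein gamma subunit, read 6.12, 5.92, 6.37 and 5.94 with W692A, 6.37, 6.32 and 6.50 with AML1/ETO, and 4.95, 5.43 and 4.88 with GFP. It thus ran opposite to Rgs18, with the GFP arrays below all others. Against GFP, Gng11 rose 2.48-fold with AML1/ETO (1.31 ± 0.159, limma adjusted p 1.34e-05) and 2.00-fold with W692A (1.00 ± 0.149, 0.000319), and the proteins did not differ past the threshold (-0.31 ± 0.149, 0.182).

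Plek encodes pleckstrin, a protein kinase C substrate of platelets and leukocytes. It was 1.81-fold lower with AML1/ETO than with GFP (limma adjusted p 9.88e-05) and 1.40-fold higher with W692A than with AML1/ETO (0.00897). It averaged 7.83 ± 0.149 with W692A (SD, 4 arrays), 7.35 ± 0.101 with AML1/ETO (3) and 8.21 ± 0.151 with GFP (3). The groups were fully separate, although W692A against GFP missed the threshold (-0.37, 0.0508). Lat, the adaptor through which the collagen receptor signals, was at least 1.36-fold lower with AML1/ETO (limma adjusted p 0.00674) and at least 1.44-fold lower with W692A (0.000947) than with GFP, and both calls ended with the Gapdh covariate (0.137 and 0.331). Fermt3 encodes kindlin-3, which activates integrins in blood cells, and was 1.48-fold higher with AML1/ETO than with GFP (limma adjusted p 0.00516) and 1.37-fold lower with W692A than with AML1/ETO (0.02). It ranged over 9.21 to 9.60 with W692A, 9.63 to 9.94 with AML1/ETO and 9.22 to 9.34 with GFP, with every AML1/ETO array above all others. Its window, chr19:7019470-7019719 on the minus strand of GRCm38.p6 from RefSeq, is shown because capitals mark 2 matches to TGTGGT, the RUNX letters, 61 and 24 bases before the start.
Fermt3: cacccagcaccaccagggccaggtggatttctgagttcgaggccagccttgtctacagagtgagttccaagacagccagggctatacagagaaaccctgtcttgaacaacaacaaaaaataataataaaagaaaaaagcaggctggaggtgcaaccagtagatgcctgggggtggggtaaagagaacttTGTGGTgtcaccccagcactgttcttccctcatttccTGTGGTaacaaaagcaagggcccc

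The eicosanoid enzymes split. Tbxas1, thromboxane synthase, was 1.44-fold lower with AML1/ETO (limma adjusted p 0.0278) and 1.42-fold lower with W692A (0.0419) than with GFP, calls that single arrays and several alternatives ended. Alox12, the platelet lipoxygenase, read 1.55, 1.04, 1.95 and 1.86 with W692A, 2.32, 1.94 and 3.04 with AML1/ETO, and 0.85, 0.80 and 0.69 with GFP. AML1/ETO was above the bound on 2 of 3 arrays, and no array of the other groups was. Alox12 rose at least 1.35-fold with AML1/ETO against GFP (limma adjusted p 0.000109) and was at least 1.35-fold lower with W692A than with AML1/ETO (0.0188), but neither call passed when values below the bound were set to it (0.303 in both).

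Nfe2 and Zfpm1 are the transcription regulators of the list. Nfe2 encodes the large subunit of the factor that drives late megakaryocyte maturation and platelet release. Its log2 intensity was 5.95, 5.64, 6.05 and 6.03 with W692A, 4.58, 4.22 and 5.07 with AML1/ETO, and 7.63, 7.60 and 7.69 with GFP. The 3 groups did not overlap, and the GFP arrays lay within 0.1 of each other. Nfe2 was 8.06-fold lower with AML1/ETO than with GFP (-3.01 ± 0.18 SE, limma adjusted p 9.25e-09), 3.29-fold lower with W692A than with GFP (-1.72 ± 0.168, 5.93e-06) and 2.45-fold higher with W692A than with AML1/ETO (1.29 ± 0.168, 5.8e-05). Nfe2 is also an erythroid gene, and the summed log2 signal of 7 measured erythroid markers was 4.25 to 4.53 with W692A, 3.99 to 4.33 with AML1/ETO and 7.66 to 8.06 with GFP, with the defining markers Slc4a1 and Alas2 at background on every array. The defining marker Klf1 averaged 1.92 with W692A, 1.77 with AML1/ETO and 3.32 with GFP, above the bound on 1 W692A, 1 AML1/ETO and 3 GFP arrays; the part of erythroid cells in the Nfe2 result was not tested. Zfpm1, the GATA1 cofactor FOG1, read 3.82, 4.29, 4.39 and 4.37 with W692A, 3.69, 4.23 and 4.05 with AML1/ETO, and 4.25, 4.35 and 4.43 with GFP. W692A overlapped both other groups, and AML1/ETO lay just below GFP. No difference in Zfpm1 passed (log2 difference -0.35 ± 0.167 SE for AML1/ETO and -0.12 ± 0.156 for W692A against GFP, limma adjusted p 0.145 and 0.705, and 0.23 ± 0.156 between the proteins, 0.382).

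Among the genes of the cytoskeleton and secretion machinery, 2 of 3 fell in each comparison with GFP and none passed between the proteins. Rab27b, a small GTPase of granule release, read 3.58, 3.58, 3.00 and 3.04 with W692A, 2.82, 3.19 and 4.56 with AML1/ETO, and 5.30, 5.38 and 4.98 with GFP. All GFP arrays stood above all others, and the proteins overlapped. Rab27b was 3.24-fold lower with AML1/ETO (-1.70 ± 0.328 SE, limma adjusted p 0.000913) and 3.78-fold lower with W692A (-1.92 ± 0.306, 0.000593) than with GFP, and the proteins did not differ past the threshold (-0.22 ± 0.306, 0.716). Mylk, myosin light chain kinase, was 1.54-fold lower with AML1/ETO than with GFP (limma adjusted p 0.0112; with the bound as a floor the same difference of -0.63 had 0.0642, although no Mylk value was below it) and ranged over 3.62 to 4.02 with W692A, 3.18 to 3.64 with AML1/ETO and 3.80 to 4.37 with GFP. Its second probe set gave a lower level with W692A than with GFP (-0.85, limma adjusted p 0.003), where the first did not pass (-0.16, 0.62). Tubb1, the beta tubulin of the platelet's marginal band, was at background on every array and fell with W692A against GFP (limma adjusted p 0.0166), a call that did not pass with the Gapdh covariate (-0.27, 0.749) or with the bound as a floor, where its difference was 0.

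**Figure D3:**
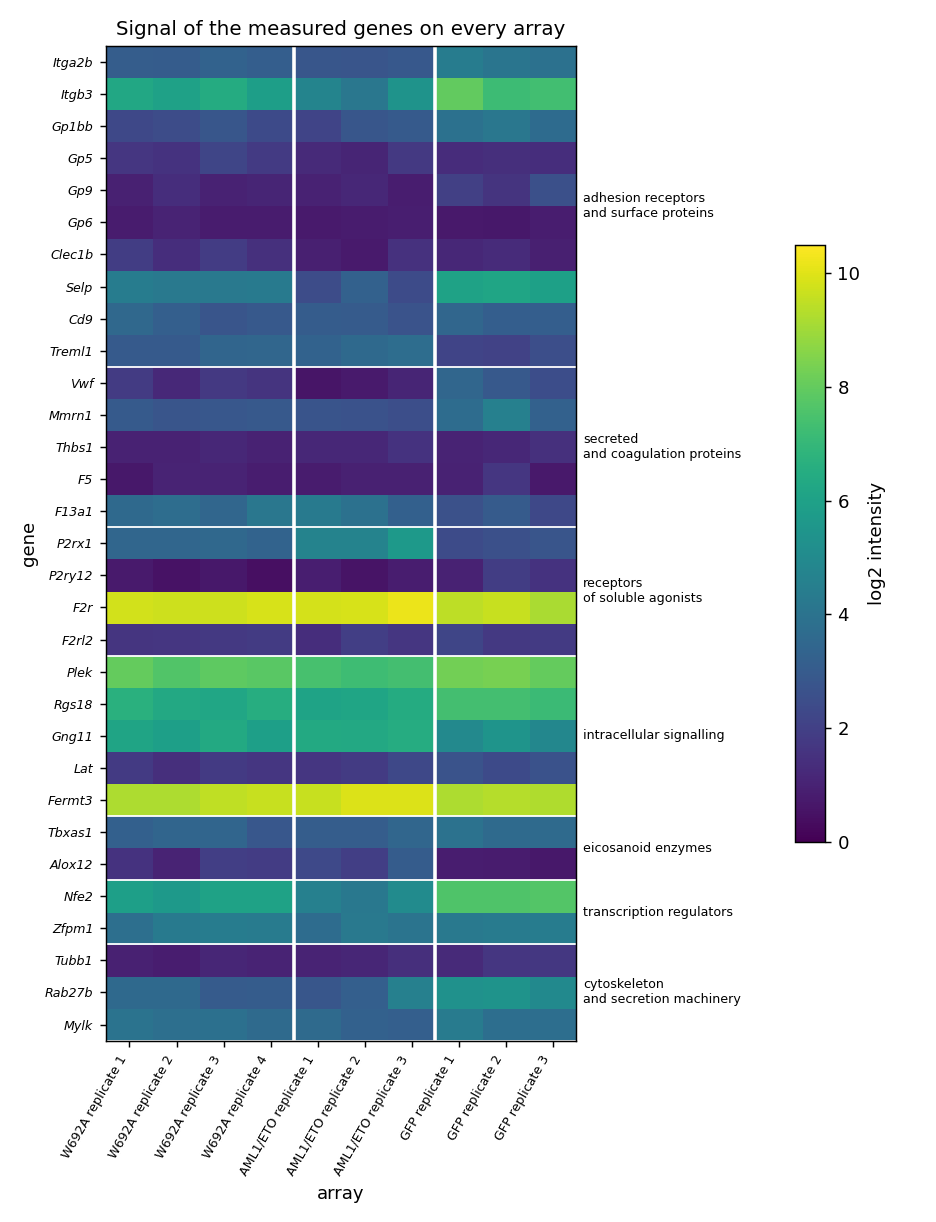
Log2 intensity of the 31 measured genes (rows, by role) on the 10 arrays (columns), with W692A, AML1/ETO and GFP from left to right, dark for low and yellow for high signal. Rows compare arrays within a gene, since probe sets differ in brightness; Gp6, F5 and P2ry12 are dark on all arrays, and F2r and Fermt3 are bright on all.

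Other probe sets of the same genes were set beside the ones used. Of 23 others, 13 from 9 genes were above the bound on some array. Where the gene was called, 10 of 13 of them gave the same call for AML1/ETO against GFP, 2 of 6 for W692A against GFP and 5 of 8 for W692A against AML1/ETO. None gave the opposite call, and the rest did not pass. The genes with a probe set that did not pass were Fermt3, Gp1bb and Plek for AML1/ETO against GFP, Gp1bb, P2rx1, Rgs18 and Selp for W692A against GFP, and Fermt3 and Plek between the proteins. A probe set shared by Pald1 and Thbs1 and one shared by Septin5 and Gp1bb were not used.

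**Figure D4:**
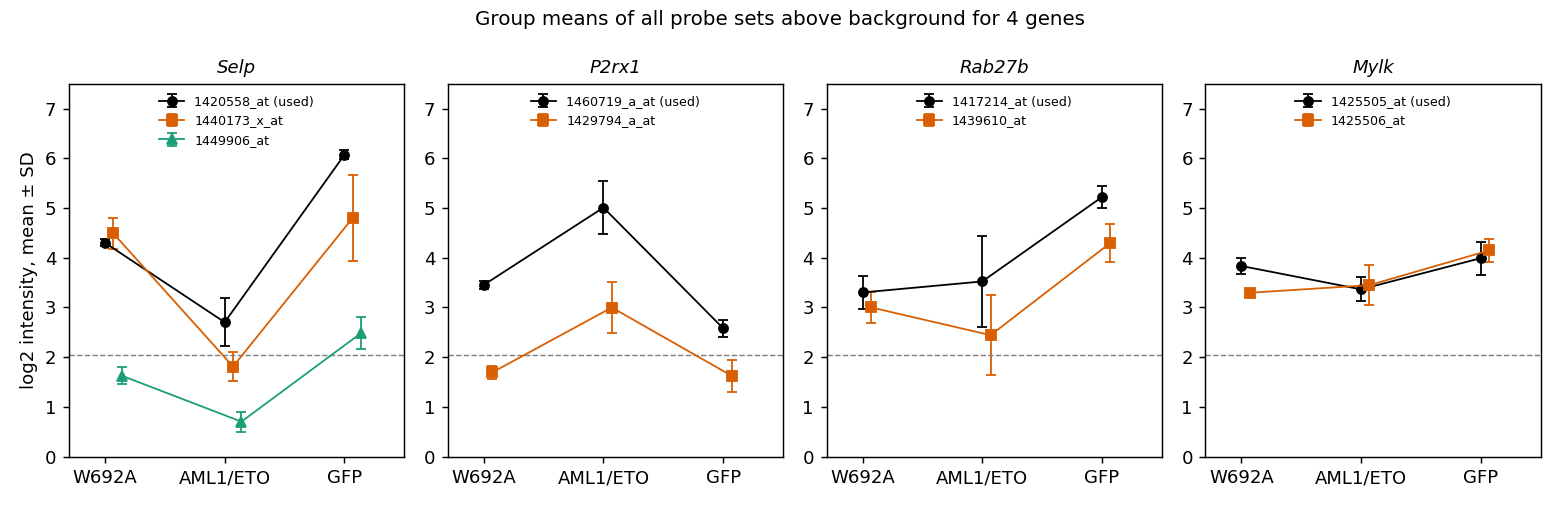
Mean ± SD of log2 intensity with W692A (4 arrays), AML1/ETO (3) and GFP (3) for each probe set of Selp, P2rx1, Rab27b and Mylk that was above the background bound of 2.04 (dashed line) on some array; lines join the groups of 1 probe set. In Selp the second probe set has W692A within the GFP range, and in P2rx1 the second has W692A level with GFP, while AML1/ETO stands apart in both. The third Selp probe set keeps the order of the first.

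Promoter windows were used for 26 of the 34 genes, 24 of them measured, and not for Vwf, Nfe2, Itgb3, Gng11, Rgs18, Rab27b, Thbs1 and Bin2. Over all 32851 windows of 250 bases, TGTGGT (RUNX) matched on either strand in 14.0%, the GATA letters AGATAA in 9.99%, GGAAGT (ETS) in 19.7% and TGAGTCA (NF-E2 and AP-1) in 4.46%; none of these motifs contains another. Among the 26, with 1 window per gene, they matched in 4, 4, 7 and 3 windows. The shares over all windows count every window of a gene. Of the 10 genes with a window that fell with AML1/ETO, 4 held ETS letters (Itga2b, Gp9, Mmrn1 and P2ry12), 2 held RUNX letters (Gp9 and Mylk) and 0 held GATA letters. Of the 6 that rose, 0 held ETS letters, 2 held RUNX letters (Fermt3 and F2r) and 1 held GATA letters (P2rx1). Of the 8 that did not pass, 2 held ETS letters, 0 held RUNX letters and 3 held GATA letters. RUNX letters thus stood before genes that fell and before genes that rose. A match is a description of the letters, not a binding site.

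Further genes of the same pathways were counted, 63 of 68 measured; Gp1ba was not analysed here. With AML1/ETO 23 rose and 12 fell against GFP, with W692A 13 rose and 14 fell against GFP, and with W692A against AML1/ETO 5 were higher and 21 lower, with median log2 differences of 0.14, -0.02 and -0.16. Of the 63, 58 were brighter genes. The called share was 55.6% for AML1/ETO against GFP, beside 28.6% of all and 52.4% of brighter genes, 42.9% for W692A against GFP, beside 14.5% and 27.4%, and 41.3% for W692A against AML1/ETO, beside 20.7% and 39.0%. Of 13 other platelet granule proteins, 6 rose and 3 fell with AML1/ETO. The alpha granule chemokines Pf4 and Ppbp were among those that rose. Sparc, a matrix-binding glycoprotein, averaged 2.51 with W692A, 4.59 with AML1/ETO and 0.90 with GFP, and rose at least 5.86-fold with AML1/ETO against GFP (limma adjusted p 3.37e-11). Pf4 averaged 8.26 with W692A, 9.61 with AML1/ETO and 7.75 with GFP, and was 3.64-fold higher with AML1/ETO (adjusted p by limma 5.24e-07) and 1.43-fold higher with W692A (0.0346) than with GFP. Ppbp averaged 4.44 with W692A, 7.16 with AML1/ETO and 4.92 with GFP, 4.73-fold higher with AML1/ETO than with GFP (0.000572) and 6.59-fold lower with W692A than with AML1/ETO (0.000113). Of the 3 that fell, Unc13d, a priming factor of granule fusion, was at least 4.03-fold lower with AML1/ETO than with GFP (limma adjusted p 6.55e-07), and Nbeal2, which alpha granules require, at least 2.10-fold lower (5.13e-07).

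Of 16 megakaryocyte transcription factors and partners, 5 rose and 3 fell with AML1/ETO, 3 rose and 2 fell with W692A against GFP, and 2 were higher and 5 lower with W692A than with AML1/ETO. Gfi1b, a repressor needed for platelet formation, averaged 3.96 with W692A, 3.52 with AML1/ETO and 5.34 with GFP, 2.61-fold lower with W692A (limma adjusted p 0.000118) and 3.54-fold lower with AML1/ETO (4.35e-06) than with GFP. Mef2c averaged 5.97 with W692A, 5.74 with AML1/ETO and 7.60 with GFP and was 3.63-fold lower with AML1/ETO than with GFP (7.38e-07). Fli1, an ETS factor of megakaryocytes, was 2.15-fold higher with AML1/ETO than with GFP (0.000884). Gata1 averaged 4.21 with W692A, 4.94 with AML1/ETO and 4.79 with GFP; it did not pass with either protein against GFP (limma adjusted p 0.111 for W692A and 0.752 for AML1/ETO) and was 1.66-fold lower with W692A than with AML1/ETO (0.0328). Runx1 was 1.90-fold higher with AML1/ETO (6.46e-05) and 2.11-fold higher with W692A (3.04e-05) than with GFP, and did not pass between the proteins (0.501). Both proteins contain RUNX1 sequence, and whether the Runx1 probe set also reads the viral transcript was not tested.

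Of 10 measured other platelet surface and agonist receptors, 6 rose and 2 fell with AML1/ETO. P2ry1, the second ADP receptor of platelets, rose at least 3.34-fold with AML1/ETO against GFP (limma adjusted p 1.22e-06) and was at least 3.34-fold lower with W692A than with AML1/ETO (4.71e-06). The thromboxane receptor Tbxa2r was at least 2.14-fold lower with AML1/ETO (0.000371) and at least 1.96-fold lower with W692A (0.00245) than with GFP. Of 7 thrombopoietin signalling genes, 2 rose and none fell with AML1/ETO, and 2 rose and 1 fell with W692A against GFP. Between the proteins 1 was higher and 1 lower with W692A. Sh2b3, an adaptor that restrains cytokine signalling, was 1.65-fold higher with AML1/ETO (adjusted p by limma 0.000336) and 1.37-fold higher with W692A (0.0159) than with GFP. Jak2 was 1.60-fold lower with W692A than with GFP (limma adjusted p 0.0047) and 1.47-fold lower with W692A than with AML1/ETO (0.0109). Among 17 genes of platelet signalling and the cytoskeleton, 4 rose and 4 fell with AML1/ETO, and 2 rose and 6 fell with W692A against GFP. There Vcl (vinculin) was 2.06-fold lower with W692A than with GFP (limma adjusted p 8.13e-05) and 2.09-fold lower with W692A than with AML1/ETO (4.29e-05).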

How the data were processed

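The authors deposited log2 intensities for each probe set, made with RMA per the submitters' processing notes (no version given). The labels do not name the base: the highest value, 12.77, corresponds to 6967 in base 2, and to 350219 if logarithms were natural, more than the 65535 of a 16-bit scanner. RMA sets all arrays to 1 distribution, which hides differences in total RNA. Of 45101 probe sets, 34945 had 1 gene symbol, updated by gene ID to GRCm38.p6 for 34741, and 932 had several and were not used. All 18193 genes were fitted in limma 3.58.1 (R 4.3.3; lmFit, eBayes) with 3 groups together, and p-values were adjusted by Benjamini-Hochberg over all genes, threshold 0.05. Data of AML1/ETO against GFP were simulated over 18193 genes, with 100 genes changed 2-fold and 100 changed 1.5-fold. Of these, 84% of the 2-fold and 29% of the 1.5-fold changes were recovered. Far more genes were called in the real comparison (5207), and the adjustment depends on that number, so these shares do not carry over directly. The number of arrays limits the precision, and p-values set each group difference against the spread between these samples within groups.

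Where the dimmer group had an array below the bound of 2.04, a fold is a lower limit with such values set to it, and none is given where both means were at background. Values on every array are given for genes called with a log2 difference of at least 1 and a group mean above the bound, at most 4 per role by size, and for Itga2b, Vwf, Nfe2 and Zfpm1; pathway genes named were up to 2 per direction and list, with Gata1, Fli1, Runx1, Pf4 and Ppbp. The members and lists were chosen with earlier results of these data known. Treml1 and Plek were described in full after their values were seen. Alternatives were leaving out the dimmest 40% of genes, the mean of probe sets, quantile normalization, median subtraction, the bound as a floor, a variance trend, 2-group fits, a replicate block, a Gapdh covariate, a 1.5-fold minimum and each array left out.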

Additional observations from a re-analysis of the deposited data

Results flagged for a closer look

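In 2 of the 31 groups of 4 W692A arrays, 1 array stood apart from the other 3 by Dixon's test at 95%, and chance alone flags about 1 in 20 such groups. Gp6 was 1.04 on W692A replicate 2, against 0.78 to 0.79 on the other 3, and Thbs1 was 1.17 on W692A replicate 3, against 1.01 to 1.02. All of these values lie below the background bound.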

How the results depend on the processing

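No called difference of a listed gene changed sign under the alternatives run, and 13 of 22 calls for AML1/ETO against GFP, 4 of 19 for W692A against GFP (Itga2b, Selp, Treml1 and Nfe2) and 4 of 9 for W692A against AML1/ETO (Itgb3, Selp, P2rx1 and Nfe2) passed under every one. With values below the bound set to it, 11 listed genes (1468 of all genes) passed for W692A against GFP and 5 (2485) for W692A against AML1/ETO. With the Gapdh covariate 6 (506) passed for W692A against GFP, and with a 1.5-fold minimum 1637 of all genes passed for W692A against GFP and 2317 for W692A against AML1/ETO, against 2642 and 3765 without one. Leaving out 1 array gave 21 to 22 listed genes (4477 to 5319 of all) for AML1/ETO against GFP, 17 to 20 (1774 to 2615) for W692A against GFP and 5 to 10 (2943 to 3777) for W692A against AML1/ETO. For all genes, quantile normalization turned 991 higher and 1651 lower with W692A against GFP into 1262 and 1352, and median subtraction turned 1748 higher and 2017 lower with W692A against AML1/ETO into 2220 and 1682. With only genes above the bound, a choice made after seeing the data, 20, 17 and 9 listed genes passed. Replicate numbers did not pair the samples throughout. Correlations of deviations were -0.12 to 0.44 over 9 same-number pairs, 4 above 0.1, and -0.38 to 0.30 over 24 others, 7 above 0.1. Replicate 1 arrays correlated positively in every pair of groups (0.44 for AML1/ETO and W692A, 0.27 for AML1/ETO and GFP, 0.26 for W692A and GFP). Some arrays of unlike number did so too, such as AML1/ETO replicate 2 and W692A replicate 3 (0.30). The main fit had no block, so structure shared between groups was not modelled. With replicate numbers as a block, 22, 18 and 11 listed genes passed (5272, 2344 and 3509 of all). Causes were not tested, and low signal limits the genes at background.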
